A study of Rattus norvegicus with 8 samples.

Results

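The mitochondrial ribosomal protein genes are the genes whose symbol starts with Mrpl or Mrps followed by a number, for large and small subunit proteins. The authors' gene table held 71 of them, 42 with a large subunit symbol and 29 with a small subunit symbol, among 13250 genes tested, and all 71 passed the filter on low counts. They were measured by RNA-seq in primary nucleus pulposus (NP) cells, the cells of the central compartment of the intervertebral disc, from adult Sprague Dawley rats. Both groups carried lentiviral ShRNA and were grown in DMEM with 10% serum. For the protein check of the knockdown the methods give culture in hypoxia, and they state no oxygen level for the RNA-seq cells. Libraries S1 to S4 are Sirt6-Ctrl (ShCtrl, genotype SIRT6Ctrl) and libraries S5 to S8 are Sirt6-KD (ShSirt6), given below in that order. The methods describe transduction with a mixture of 3 ShSirt6 clones or with control virus, followed by puromycin in the medium. Each Sirt6-KD library is therefore a pool of transduced cells and not a clonal line, and the effects of single ShRNAs cannot be told apart. The series' design text speaks of cells from 4 rats and of a control belonging to each knockdown, but the labels do not tie a library to a rat. The tests are therefore unpaired, and their p-values measure the spread between these 8 libraries with any difference between rats left in it.

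Mitochondria carry their own ribosome, which makes only the core respiratory chain and ATP synthase subunits encoded by mitochondrial DNA. Its RNAs come from mitochondrial DNA, but all of its proteins are encoded in the nucleus, made in the cytosol and imported, and many have no counterpart in the bacterial ribosome. Promoters of nuclear genes for mitochondrial proteins are known to hold sites for the factors NRF1, the ETS family member GABP and YY1, while Myc binds the E-box. NP cells live in a poorly perfused tissue and rely largely on glycolysis.

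Promoter sequences (RefSeq, build GRCr8, 250 bases before to 50 bases after the gene start) were matched by symbol for 56 of the 71 genes. Those of the 4 genes with the smallest p are shown, chosen by p alone. These genes were lower in Sirt6-KD, and only 1 of their promoters holds the letters searched. Capitals mark NRF1 (GCGCATGCG), ETS (CCGGAAG) and E-box (CACGTG) letters on either strand, and YY1 (AAGATGGCG) was searched in the same way. Mrpl49 lies at chr1:212779278-212779577 (minus strand), Mrpl10 at chr10:82522220-82522519 (plus), Mrpl28 at chr10:15652929-15653228 (plus) and Mrps18b at chr20:2842756-2843055 (plus).
Mrpl49: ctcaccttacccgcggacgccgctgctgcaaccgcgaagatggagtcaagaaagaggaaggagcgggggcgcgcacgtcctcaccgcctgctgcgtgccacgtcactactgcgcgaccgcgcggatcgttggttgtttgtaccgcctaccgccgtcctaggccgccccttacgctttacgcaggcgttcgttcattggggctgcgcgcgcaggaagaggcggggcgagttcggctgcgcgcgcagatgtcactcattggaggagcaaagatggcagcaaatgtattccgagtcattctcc
Mrpl10: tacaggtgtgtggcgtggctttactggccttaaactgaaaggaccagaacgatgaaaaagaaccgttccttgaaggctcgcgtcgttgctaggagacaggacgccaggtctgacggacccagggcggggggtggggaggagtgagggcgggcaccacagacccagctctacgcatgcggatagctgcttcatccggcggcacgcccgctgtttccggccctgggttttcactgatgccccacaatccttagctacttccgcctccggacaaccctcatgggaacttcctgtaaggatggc
Mrpl28: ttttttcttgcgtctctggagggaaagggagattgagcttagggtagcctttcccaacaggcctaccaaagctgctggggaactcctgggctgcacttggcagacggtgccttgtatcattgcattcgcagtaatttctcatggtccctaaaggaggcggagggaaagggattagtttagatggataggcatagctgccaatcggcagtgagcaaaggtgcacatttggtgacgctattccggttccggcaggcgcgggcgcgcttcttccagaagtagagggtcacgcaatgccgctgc
Mrps18b: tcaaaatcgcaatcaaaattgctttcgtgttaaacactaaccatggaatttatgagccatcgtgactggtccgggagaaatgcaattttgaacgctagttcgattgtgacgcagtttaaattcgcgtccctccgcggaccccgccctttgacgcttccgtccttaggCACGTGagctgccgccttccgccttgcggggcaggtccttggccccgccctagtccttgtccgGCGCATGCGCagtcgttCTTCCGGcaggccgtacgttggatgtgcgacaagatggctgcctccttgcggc

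In the Mrps18b promoter the NRF1 letters were read on both strands at adjacent positions, -20 and -19 from the start site, which gives the palindrome in capitals. The ETS letters began at -3 and the E-box at -83. At least 1 of the 4 motifs was present in 28 of the 56 member promoters (50%) and in 30.1% of the 9371 promoters of genes tested. The NRF1 letters were found in 8.93% of the member promoters against 3.40%, the ETS letters in 32.1% against 17.8% and the YY1 letters in 14.3% against 3.98%. E-box letters were found in 7.14% against 9.32%. Among the members called lower below, 33.3% of 21 promoters held a motif, against 60.0% of 35 promoters of members not called. The motifs did not all go the same way. NRF1 letters were in 14.3% of called against 5.71% of not called. ETS letters were in 19.1% against 40.0%, YY1 letters in 9.52% against 17.1% and E-box letters in 4.76% against 8.57%. No test was made of these shares, and the median GC content was 56.0% in the member promoters and 61.3% in those of all genes tested.

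Sirt6 itself, the targeted gene, was at 56.4, 54.3, 52.5 and 47.6 TMM-normalized CPM in S1 to S4 and at 21.8, 21.0, 19.2 and 20.6 CPM in S5 to S8, and fell by 1.35 on the log2 scale (SE 0.135, edgeR quasi-likelihood test, adjusted p = 0.000713). Under scaling by spike-in counts its log2 fold change was -0.36 and it was not called (adjusted p = 0.568). Libraries held 31994838 to 40124813 counts. Of 16 NP markers listed, 10 were named in the authors' table and detected, and several differed in level between the groups. Mean levels in control and knockdown cells were 21.1 and 13.8 CPM for Acan, 6.56 and 2.63 CPM for Krt8, 37.9 and 19.3 CPM for Cd24, 16.0 and 2.47 CPM for Car3 and 28.4 and 82.1 CPM for Car12, while Sox9, Pax1 and Foxf1 were at 7.98 and 11.1, 71.8 and 53.4, and 50.9 and 41.7 CPM. Summed NP markers were at 9076 to 12659 CPM in S1 to S4 and 7982 to 10196 CPM in S5 to S8, most of it Vim. Krt18, Krt19, Col2a1 and T or Tbxt were not named there. Of 8 annulus fibroblast markers 7 were named, with Col1a1 at 17093 and 11032 CPM, Scx at 63.6 and 27.7 CPM and Igfbp6 at 75.8 and 30.0 CPM, and a summed level of 14067 to 26646 CPM in S1 to S4 against 8491 to 18430 CPM in S5 to S8. The part of these cell markers in the results below was not tested. Summed macrophage and leukocyte markers were at 11.9 to 29.7 CPM in control libraries against 15 to 23.8 CPM (3 of 8 named), and of the endothelial markers only Tek was named, at up to 0.592 CPM. Summed smooth muscle and pericyte markers (5 of 6 named) were at 355 to 1482 CPM in S1 to S4 against 426 to 999.5 CPM in S5 to S8. Summed osteoblast markers (2 of 5 named) were at 2.57 to 5.60 CPM against 0.597 to 1.98 CPM. The part of these markers was not tested either. S1 and S2 stood apart from the other libraries: ERCC spike-in RNA made up 6.27% and 9.80% of their counts, against 3.08% and 2.97% in S3 and S4 and 2.15% to 2.47% in the Sirt6-KD libraries.

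The mitochondrial ribosomal protein genes were lower in Sirt6-KD as a group, with a median log2 fold change of -0.66 against -0.02 over all genes tested, although under scaling by spike-in counts the sign of their median turned. Of the 71 genes, 26 were called lower (adjusted p below 0.05 and fold change above 1.5), against 10.7% of all genes tested, and 0 were called higher, against 8.02%. With the fold threshold left out, 27 were lower (12.8% of all genes), the added gene being Mrpl45, which holds the mitoribosome at the inner membrane (log2 fold change -0.54, SE 0.160, adjusted p = 0.0358; named after its values were seen). At an unadjusted p below 0.05, 53 were lower and 0 higher. The share of all genes at that unadjusted p is not given here, so these counts cannot be weighed against it. The fold change was below 0 for 69 of 71 genes, against 50.9% of all genes, the exceptions being Mrps6 and Mrps27. All 4 Sirt6-KD libraries lay below all 4 Sirt6-Ctrl libraries for 31 members (15.6% of all genes), and none showed the opposite order (14.8%). In bulk samples, fewer cells of a type and less RNA per cell cannot be told apart.

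The count of calls moved with single libraries. It was 10 without S1 (5.71% of all genes were called lower in that fit), 17 without S2 (8.42%), 45 without S3 (14.1%) and 27 without S4 (10.9%). Without S5, S6, S7 and S8 it was 10, 6, 7 and 11, against 5.81%, 5.15%, 5.60% and 7.25% of all genes. Over the same 8 fits the median log2 fold change stayed between -0.77 and -0.47 for each subunit, and 64 members were below 0 in every fit. Mrpl10, Mrpl28, Mrpl49, Mrps11, Mrps12 and Mrps18b were called in all 8, and each of the other 20 calls was lost in at least 1 fit. Scaled by spike-in counts, 0 members were called by edgeR, when 4 of 13253 genes were called lower (0.0302%) and 22 higher. In that fit 3 members had an unadjusted p below 0.05, a count given without a share of all genes. The median of all genes then stood at 0.94, that of the members at 0.49, and 67 of 71 members lay below the median of all genes.

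**Figure D1:**
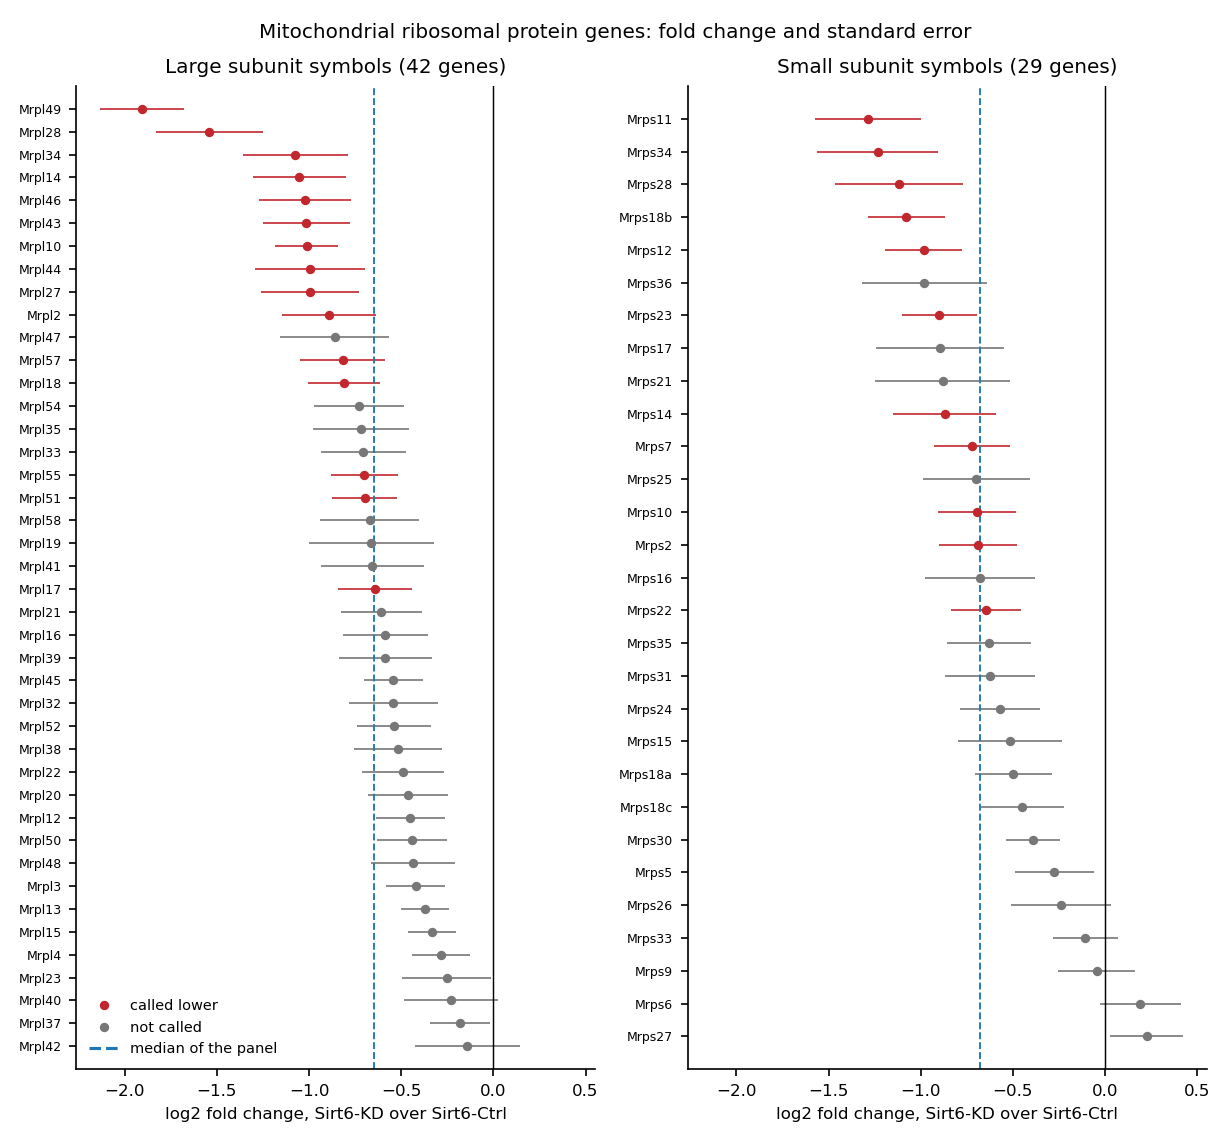
Log2 fold change, Sirt6-KD against Sirt6-Ctrl (x axis) for each mitochondrial ribosomal protein gene, large subunit symbols left and small right. Points are edgeR estimates under TMM scaling with their standard error as bars, red where called lower, and the dashed lines are the panel medians of -0.65 and -0.68. All but Mrps6 and Mrps27 lie below 0, a position that turns for most genes under spike-in scaling.

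Among large subunit proteins, 15 of 42 genes were called lower, against 10.7% of all genes tested. Groups did not overlap for 21 of them, against 15.6% of all genes with Sirt6-KD lower. Mrpl49, a protein with no bacterial counterpart, was at 22.4, 30.2, 19.4 and 23.7 CPM in Sirt6-Ctrl against 5.96, 5.59, 5.79 and 8.11 CPM in the knockdown, and fell by 1.91 on the log2 scale (SE 0.228, adjusted p = 0.00149). The groups were far apart, and Mrpl49 was the single member called when the test asked for a change beyond 1.5-fold (edgeR glmTreat), a test that called 1.40% of all genes lower. Mrpl10 forms the base of the ribosomal stalk, which recruits translation factors. It was at 83.8, 89.1, 55.2 and 63.1 CPM in Sirt6-Ctrl against 38.2, 35.9, 33.6 and 36.5 CPM in the knockdown, and fell by 1.01 (log2, SE 0.171, adjusted p = 0.00509). Its groups did not overlap. Its stalk partner Mrpl12, singled out after its values were seen, was at 52.1, 66.4, 36.1 and 45.3 CPM against 38.4, 33.5, 34.4 and 39.9 CPM and was not called (log2 fold change -0.45, SE 0.188, adjusted p = 0.111). S3 lay among the Sirt6-KD values for Mrpl12.

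Mrpl28, which has a bacterial counterpart, was at 51.4, 89.8, 31.1 and 42.4 CPM in Sirt6-Ctrl against 16.0, 20.3, 20.4 and 17.0 CPM in the knockdown, and fell by 1.54 on the log2 scale (SE 0.291, adjusted p = 0.00754). S2 was the highest library and S3 the lowest Sirt6-Ctrl library, still above all of Sirt6-KD. Mrpl43 was at 79.7, 116, 49.3 and 65.7 CPM against 43.4, 35.4, 34.8 and 40.3 CPM (log2 fold change -1.01, SE 0.236, adjusted p = 0.0155), again without overlap. Mrpl14, the surface that the assembly factor Malsu1 binds, was at 25.1, 32.7, 17.6 and 16.5 CPM against 11.9, 11.3, 8.92 and 12.1 CPM (log2 fold change -1.05, SE 0.253, adjusted p = 0.0174). S1 and S2 stood above S3 and S4, and S3 and S4 above all of Sirt6-KD.

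The central protuberance, at the top of the large subunit, holds Mrpl18 and Mrpl46. Mrpl18 was at 63.3, 62.9, 37.9 and 43.1 CPM in Sirt6-Ctrl against 34, 29.3, 26.5 and 28.1 CPM in the knockdown (log2 fold change -0.81, SE 0.196, adjusted p = 0.0176). Its groups did not overlap, but S3 and S5 came within a few CPM of each other. Mrpl46 was at 24.7, 47.7, 21.9 and 25.7 CPM against 15.2, 13.8, 14.6 and 15.4 CPM (log2 fold change -1.02, SE 0.250, adjusted p = 0.0185). S2 was far above the other Sirt6-Ctrl libraries, which still lay above all Sirt6-KD libraries. Mrpl51 was at 61.8, 52.7, 37.6 and 44.9 CPM against 28.1, 30.3, 27.8 and 35.1 CPM (log2 fold change -0.70, SE 0.178, adjusted p = 0.0209), with S8 just below S3. The other 7 large subunit genes called lower had log2 fold changes from -1.07 to -0.64. They were Mrpl34 and Mrpl44, Mrpl27 and Mrpl2, which lie near the peptidyl transferase centre, Mrpl17 near the exit of the nascent chain, and Mrpl55 and Mrpl57. Mrpl44 and Mrpl17 had 1 or more Sirt6-KD libraries above S3.

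Among small subunit proteins, 11 of 29 genes were called lower (10.7% of all genes tested) and 10 had groups that did not overlap (15.6% of all genes, Sirt6-KD lower). Mrps18b is 1 of 3 relatives of a single bacterial protein and sits in the small subunit. It was at 167, 155, 80.4 and 117 CPM in Sirt6-Ctrl against 67.6, 62.6, 56.3 and 59.5 CPM in the knockdown, and fell by 1.08 on the log2 scale (SE 0.209, adjusted p = 0.00809). Its groups did not overlap, and S3 was the Sirt6-Ctrl library nearest to Sirt6-KD. Mrps12, a protein of the decoding centre, was at 33.1, 36.0, 20.1 and 25.6 CPM against 14.9, 13.4, 15 and 14.8 CPM (log2 fold change -0.98, SE 0.208, adjusted p = 0.0109). The Sirt6-KD libraries were within 2 CPM of each other and below all Sirt6-Ctrl libraries.

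Mrps11, of the platform of the small subunit, was at 28.6, 27.5, 13.0 and 21.2 CPM in Sirt6-Ctrl against 11.8, 10.1, 6.78 and 8.40 CPM in the knockdown, and fell by 1.29 on the log2 scale (SE 0.287, adjusted p = 0.0134). It had the largest fall of the small subunit genes, without overlap, but S3 and S5 were close. Mrps23, a protein with no bacterial counterpart, was at 97.4, 132, 66.4 and 75.5 CPM against 54.4, 48.2, 48.2 and 48.4 CPM (log2 fold change -0.90, SE 0.202, adjusted p = 0.0137). S5 was the highest of its Sirt6-KD libraries and still below all of Sirt6-Ctrl. The other 7 small subunit genes called lower were Mrps34, Mrps28, Mrps14, Mrps7, Mrps10, Mrps2 and Mrps22, with log2 fold changes from -1.23 to -0.64. Of these, Mrps28 and Mrps14 had overlapping groups.

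**Figure D2:**
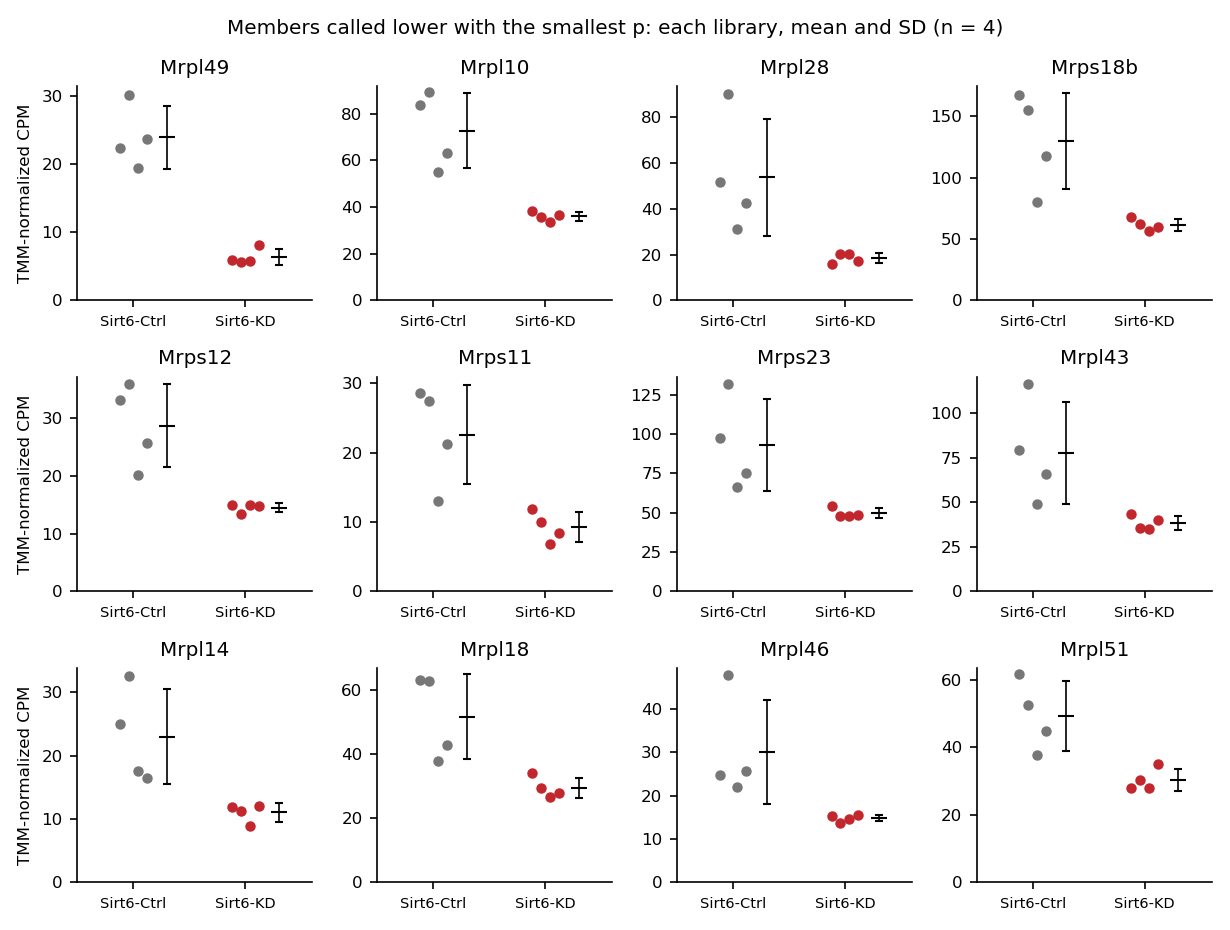
TMM-normalized CPM (y axis, from 0) of the 12 members called lower with the smallest p, with 1 point a library in the order S1 to S4 (grey, Sirt6-Ctrl) and S5 to S8 (red, Sirt6-KD), and the mean and SD of 4 libraries in black. In each panel all red points lie below all grey points, and the grey points spread more widely than the red ones.

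The members nearest to or above 0 came from both subunits. Mrps27, an RNA-binding small subunit protein, was at 14.6, 19.9, 17.3 and 13.3 CPM in Sirt6-Ctrl against 17.4, 19.8, 16.9 and 22.1 CPM in the knockdown (log2 fold change 0.23, SE 0.199, adjusted p = 0.447). Mrps6 was at 28.2, 29.8, 15.8 and 20.4 CPM against 31.4, 25.5, 25.9 and 24.8 CPM (log2 fold change 0.19, SE 0.219, adjusted p = 0.568). Both groups overlapped in each gene, and neither fold change exceeded the spread between libraries. Mrps9 had a log2 fold change of -0.04 (SE 0.209), and the large subunit genes nearest 0 were Mrpl42 (-0.14, SE 0.286), Mrpl37 (-0.18, SE 0.165) and Mrpl40 (-0.23, SE 0.257). None of these 6 passed the test, and their standard errors do not show that they were unchanged.

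For some genes the symbol and the place of the protein differ. Mrps18a and Mrps30 carry small subunit symbols but their proteins sit in the large subunit, and neither was called, at 42.6 ± 11.8 CPM (SD, n = 4) in Sirt6-Ctrl against 30.2 ± 4.14 CPM for Mrps18a and 39.3 ± 4.44 against 30.0 ± 2.54 CPM for Mrps30 (adjusted p = 0.111 and 0.0820). Mrps36 is known today as a subunit of the 2-oxoglutarate dehydrogenase complex and not of the ribosome. It was at 19.4, 31.1, 10.8 and 14.6 CPM against 11.1, 9.26, 6.28 and 11.8 CPM (log2 fold change -0.98, SE 0.340, adjusted p = 0.0625). S3 lay among the Sirt6-KD values for Mrps36. Mrpl58, an enzyme that frees stalled ribosomes and is built into the large subunit, was at 18.6, 41.6, 20.7 and 19.6 CPM against 14.0, 16.3, 16.5 and 16.2 CPM (log2 fold change -0.67, SE 0.268, adjusted p = 0.0970), with S2 far above the rest.

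Values for the large and the small subunit lay close together. The median log2 fold change was -0.65 for the 42 large and -0.68 for the 29 small subunit genes, a difference of 0.03, while the quartiles ran from -0.85 to -0.45 in the large and from -0.89 to -0.45 in the small subunit. Sorted by place, without Mrps36, the medians were -0.62 for 44 genes and -0.68 for 26. The called share was 35.7% in the large and 37.9% in the small subunit, against 10.7% of all genes tested. All 42 large subunit genes and 27 of 29 small subunit genes were below 0. No p is given for a difference between the gene groups, since genes of 1 library are not replicates.

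Grouped by a fixed list of symbols into proteins with a bacterial counterpart and proteins particular to mitochondria, the values were close as well. All symbols from Mrpl37 to Mrpl54 were put in the mitochondrial class by number, so that class may hold proteins with a counterpart. The 37 genes classed with a counterpart had a median of -0.66 and 14 called lower. The 26 genes classed as mitochondrial had a median of -0.63 and 8 called lower, against 10.7% of all genes tested. Within the large subunit the medians were -0.62 and -0.59, and within the small subunit -0.69 and -0.63. The remaining 8 genes, Mrps18b and Mrps28 among them, were not assigned to either class. Pseudogenes or like copies are named for 22 members in the RefSeq gene table, 6 of them called lower (Mrpl2, Mrpl17, Mrpl46, Mrps10, Mrps11 and Mrps18b), and counts of these are uncertain where the counting divided reads between copies.

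Summed over all members, the level was 3069, 3612, 1997 and 2337 CPM in S1 to S4 and 1818, 1723, 1643 and 1799 CPM in S5 to S8, or 2754 ± 726 CPM against 1746 ± 79.7 CPM (mean ± SD, n = 4). Every Sirt6-KD library was below every Sirt6-Ctrl library, and the Sirt6-Ctrl libraries split into a higher pair and a lower pair. The Sirt6-KD mean was 0.635 of the Sirt6-Ctrl mean for the large subunit and 0.633 for the small. Large subunit counts were 1.66 ± 0.0756 times small subunit counts in Sirt6-Ctrl and 1.65 ± 0.0635 times in Sirt6-KD, a ratio of CPM sums and not of copies, since levels were not set per length.

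S1 and S2, the libraries with the highest spike-in share, also held the highest member levels. Of 71 members, 50 were highest in S2 and 17 in S1, while 49 had their lowest Sirt6-Ctrl value in S3. The median log2 ratio of S1 and S2 over S3 and S4 was 0.62, and 69 members were higher in that pair. Sirt6-KD over S3 and S4 had a median of -0.33, and Sirt6-KD over S1 and S2 a median of -0.93. Refitted without S1 and S2, the medians were -0.32 for each subunit, 61 of 71 members were below 0 and 6 were called lower (Mrpl10, Mrpl28, Mrpl46, Mrpl49, Mrps12 and Mrps18b), against 5.00% of all genes in that fit. In 32 members every Sirt6-KD library lay below both S3 and S4, against 21.0% of all genes. The part of the spike-in share in the result was not tested.

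**Figure D3:**
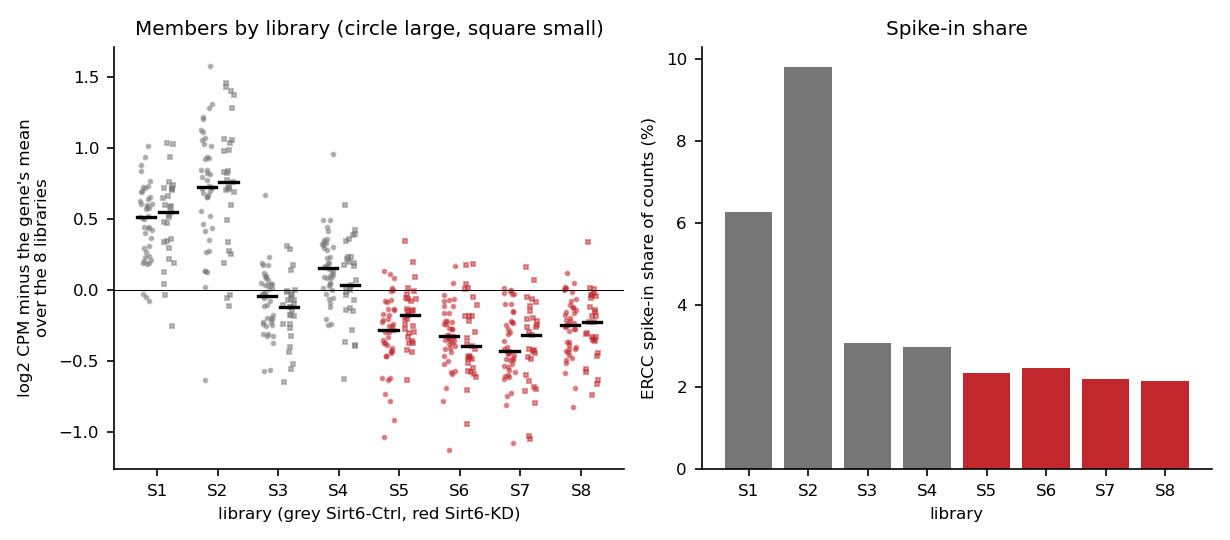
Left, log2 CPM of each member minus its mean over the 8 libraries (y axis) in each library (x axis), circles for large and squares for small subunit genes, with medians as black bars. Right, the share of counts from ERCC spike-ins in each library, in percent. S1 and S2 hold the highest member levels and the highest spike-in shares (6.27% and 9.80%), and S3 and S4 lie between them and the Sirt6-KD libraries.

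Gene length moved with the result too. The median span from start to end of a gene in RefSeq, introns included, was 6652 bases for 70 members and 25285 bases for all genes tested, and the Spearman correlation of span with the log2 fold change was 0.40 across members and 0.34 across 11391 genes. These values are across genes, which share libraries and are not independent. After a loess correction for span the median was -0.49 for the large and -0.61 for the small subunit, with all genes at -0.14, and 14 of 71 members were called lower, against 12.6% of all genes.

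**Figure D4:**
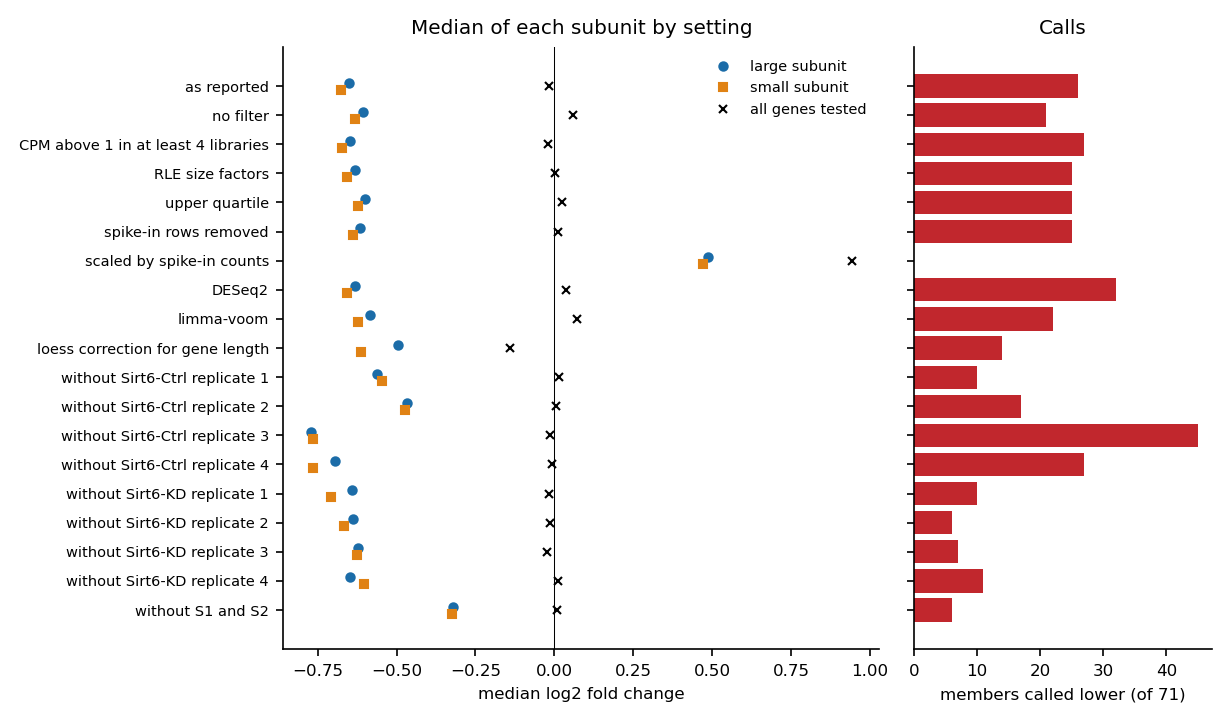
Median log2 fold change of large subunit genes (circles), small subunit genes (squares) and all genes tested (crosses) under each setting (left), and the number of members called lower (right, bars from 0). The subunit medians differ most after the correction for gene length (-0.49 and -0.61), lie below 0 in every setting other than spike-in scaling, and lie left of the cross in all of them.

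The other genes of mitochondrial translation had a median log2 fold change nearer to 0, at -0.19. They came from a list of 70 symbols, of which 61 were tested. That list holds older names, such as Gtpbp5 for Mtg2 and Ict1 for the member Mrpl58, so 70 is not a count of genes. Of the 61, 9 were called lower (14.8%, against 10.7% of all genes) and 0 higher. Of 6 mitoribosomal proteins with other symbols, only Chchd1 was called lower (-0.66, SE 0.202, adjusted p = 0.0405). Of 28 assembly and rRNA factors, 6 were called lower (21.4%). They were Ngrn, needed for the large rRNA (-1.71, SE 0.251, adjusted p = 0.00327), Mterf4, which brings an rRNA methyltransferase to the large subunit (-1.08, SE 0.207, adjusted p = 0.00795), the rRNA methyltransferases Mrm2 and Mrm3, Malsu1 (-1.07, SE 0.275, adjusted p = 0.0218) and the RNA-binding Slirp. Ngrn and Mterf4 were called in all 8 fits that left out a library, and the other 4 in 2 to 5 of them. Among 11 translation factors only the elongation factor Tsfm was called lower (-0.84, SE 0.263, adjusted p = 0.0447), and among 16 aminoacyl-tRNA synthetases only Rars2 (-0.87, SE 0.256, adjusted p = 0.0354), with medians of -0.29 and 0.01. The calls of Chchd1 and Tsfm held in 2 of the 8 fits that left out a library and that of Rars2 in 3.

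Of 15 regulators of mitochondrial DNA expression and biogenesis, the helicase Twnk, the transcription factor Tfb2m and the polymerase subunit Polg2 were called lower (log2 fold changes -1.06, -0.86 and -1.24). That is 20% of the list, against 10.7% of all genes tested. Myc was called higher (0.69, SE 0.198, adjusted p = 0.0324). The median of the list was 0.18, and only the call of Twnk held in all 8 fits that left out a library.

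Related gene groups stood on either side of the members. Of 79 nuclear respiratory chain and ATP synthase subunits 44 were called lower (55.7%, against 10.7% of all genes tested), with a median of -0.76. Of 73 cytosolic ribosomal proteins only Rps27l was called lower (-0.64, SE 0.185, adjusted p = 0.0331), with a median of -0.24. The 13 mRNAs of mitochondrial DNA, which the mitoribosome translates, had a median of 0.01. Among them Mt-nd6 was called lower (-0.85, SE 0.205, adjusted p = 0.0178), and Mt-atp8 (0.68, SE 0.132, adjusted p = 0.00825) and Mt-nd4l (0.78, SE 0.208, adjusted p = 0.0251) were called higher. Mt-atp8 was called in all 8 fits that left out a library, Mt-nd6 in 5, Mt-nd4l in 3 and Rps27l in 2. Mt-atp8 and Mt-nd4l overlap other mitochondrial genes, and how reads in the overlaps were counted is not given in the sources used here. Whether the counting used strand is not given either, a separate limit that also covers Mt-nd6. Differences between the gene groups were not tested.

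**Figure D5:**
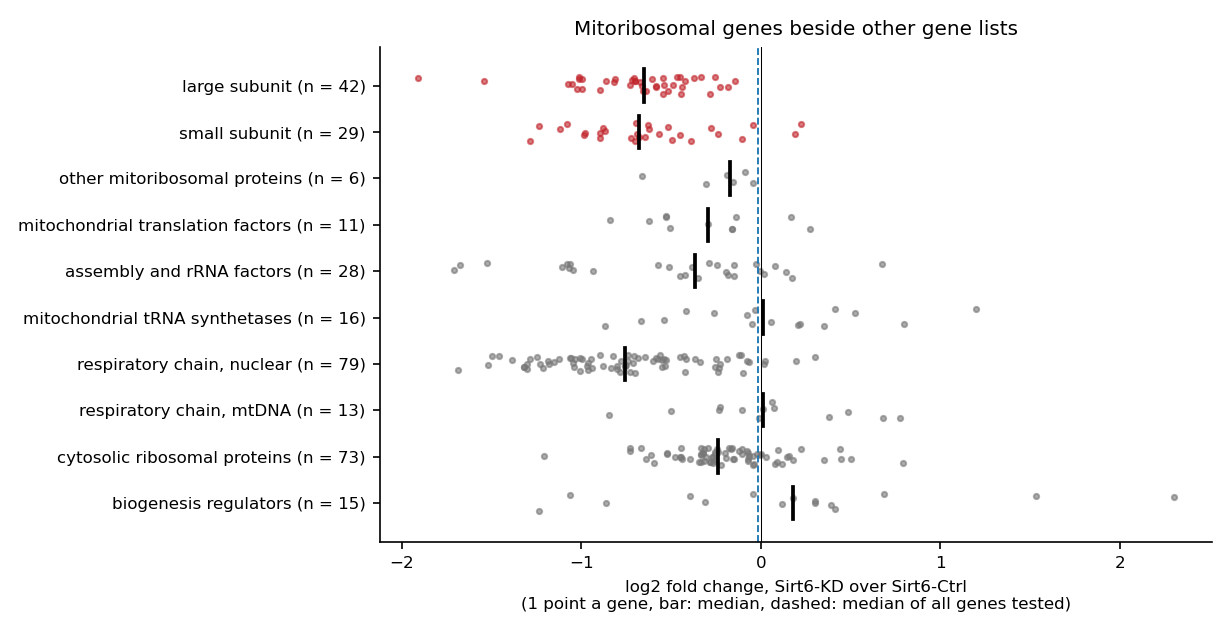
Log2 fold change, Sirt6-KD against Sirt6-Ctrl (x axis, TMM scaling) for each gene of the large and small subunit (red) and of other lists (grey), with the median of each as a black bar and that of all genes tested as a dashed line. The large and small subunit medians (-0.65 and -0.68) lie near that of the nuclear respiratory chain (-0.76) and left of the cytosolic ribosomal proteins (-0.24).

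A neighbour on the opposite strand whose start lay within 1000 bases upstream, or overlapped by up to 200 bases, was found for 17 of the 56 members with a promoter (30.4%), against 12% of 9365 genes tested. Mrpl46 and Mrps11, a large and a small subunit gene, are such neighbours with starts 234 bases apart, and both were called lower. Of the partners that are no members, 14 were tested, 7 were below 0, 2 were called lower and 1 higher, and their median was -0.07. Over all genes tested, 10.7% were called lower and 8.02% higher. Those 3 were named after their values were seen. Ppp1r10, next to Mrps18b, fell by 2.49 on the log2 scale (SE 0.184, adjusted p = 9.07e-05), and Psma2, a proteasome subunit next to Mrpl32, by 0.80 (SE 0.151, adjusted p = 0.00728). Ncapd2, a condensin subunit whose start is 50 bases from that of Mrpl51, rose by 0.61 (SE 0.190, adjusted p = 0.0428) while Mrpl51 fell. Ppp1r10 and Psma2 were called in all 8 fits that left out a library and Ncapd2 in 3. Among these pairs the starts overlapped only for Mrpl57 and Ska3 (distance -106 bases). Without strand, reads from that overlap cannot be told apart.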

How the data were processed

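RNA-seq libraries of Sirt6-Ctrl (n = 4) and Sirt6-KD (n = 4) rat NP cells were analysed. Raw counts were deposited by the authors in 32975 rows, 1 for each Ensembl gene or ERCC spike-in. Their gene table, with 13612 rows whose 8 counts sum to more than 80, holds a deposited normalized signal that is the raw count divided by 1 factor per library, and gene names. It also holds the authors' own fold changes, p-values and adjusted p-values, which were not used. The submitters' processing notes name Trimmomatic 0.36, STAR 2.5.2b, featureCounts, Subread 1.5.2, DESeq2 and the build Rnor_6.0. Strandedness is not given in the sources used here.

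Members were matched by symbol in the gene table, and their values were computed from the raw counts. Low rows were removed with filterByExpr of edgeR 4.0.16 (R 4.3.3), which left 13313 rows, 63 of them spike-ins, of which 13250 are genes. Libraries held 31994838 to 40124813 counts, and TMM factors were used to scale them. The two-sided quasi-likelihood test of edgeR gave p-values, adjusted by Benjamini-Hochberg across all these rows. Calls needed an adjusted p under 0.05 together with a fold change of more than 1.5. The script was tested on simulated data. Alternatives were other filters, RLE and upper quartile scaling, spike-ins removed or used for scaling, DESeq2 1.42.0, limma-voom 3.58.1, glmTreat, a loess correction for gene span, other thresholds and leaving out libraries.

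The members and lists were chosen with earlier results of these data known. Named with values were Sirt6, members called, the 3 largest rises and falls in each subunit, Mrps18a, Mrps18b, Mrps30 and Mrps36, members with a library far from its group, and called genes of the other lists outside the respiratory chain. A rule for the members with the highest level per length was not applied, because no transcript lengths were used here. Motifs were searched as exact letters on both strands, and intervals of position are counted from the start site.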

Additional observations from a re-analysis of the deposited data

Results flagged for a closer look

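Of 144 groups of 4 libraries examined (71 members and Sirt6, each in Sirt6-Ctrl and Sirt6-KD), 10 held a library far from the others. The measure is the gap to the nearest library as a share of the whole range of the group, held against Dixon's 95% critical value for 4 samples, and chance passes about 1 in 20 groups, or 7.2 of 144. In Sirt6-KD, Mrpl16 was lowest in S6 (11.3 CPM against 17.4 in the nearest library, gap 0.881), Mrpl35 lowest in S7 (0.850), Mrpl39 highest in S7 (0.910), Mrpl49 highest in S8 (8.11 against 5.96 CPM, 0.851), Mrpl58 lowest in S5 (0.886), Mrps12 lowest in S6 (0.882), Mrps23 highest in S5 (0.962) and Mrps6 highest in S5 (0.831). In Sirt6-Ctrl, S2 was highest for Mrpl46 (47.7 against 25.7 CPM, 0.852) and for Mrpl58 (41.6 against 20.7 CPM, 0.911). Mrpl49 and Mrps12 were called lower in every fit that left out 1 library.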

How the results depend on the processing

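Filters, RLE and upper quartile scaling, removal of spike-in rows, DESeq2 and limma-voom kept the medians of both subunits between -0.68 and -0.58 and the count of members called lower between 21 and 32. Over these settings 6.40% to 12.2% of all genes were called lower. The count was 0 under spike-in scaling (0 past the adjusted p), against 0.0302% of all genes called lower, and 1 under glmTreat (1.40% of all genes). It was 14 after the span correction (14 past the adjusted p), against 12.6% of all genes, and 6 without S1 and S2 (8), against 5.00%. At an adjusted p below 0.01 it was 4 (4), and at a fold change above 2 it was 11. The shares of all genes at these other thresholds are not given here. Leaving out 1 library gave 6 to 45 called lower (5.15% to 14.1% of all genes) and 6 to 46 past the adjusted p. The medians were then -0.77 to -0.47 for the large and -0.76 to -0.47 for the small subunit, with differences of medians from -0.04 to 0.07. The large minus small difference was 0.12 after the span correction. Medians for the large and small subunit were -0.32 and -0.32 without S1 and S2, and turned to 0.49 and 0.47 under spike-in scaling, with all genes at 0.94. The cause of these moves was not tested. Fits that leave libraries out also hold fewer samples, and the part of that was not tested either.

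Spike-in scaling turned the sign of 66 of the 71 members, took Sirt6 to -0.36 and removed its call. Among the members named with values in the text, the turned log2 fold changes were Mrpl10 0.0839, Mrps18b 0.0469, Mrps12 0.13, Mrps23 0.26, Mrpl43 0.17, Mrpl14 0.11, Mrpl18 0.30, Mrpl46 0.13, Mrpl51 0.37, Mrpl55 0.35, Mrpl34 0.12, Mrps34 0.0752, Mrpl27 0.23, Mrpl57 0.31, Mrpl2 0.23, Mrps7 0.41, Mrps22 0.38, Mrpl44 0.25, Mrps10 0.37, Mrps2 0.47, Mrps28 0.18, Mrpl17 0.49, Mrps14 0.32, Mrpl45 0.54, Mrps36 0.26, Mrpl35 0.45, Mrps30 0.56, Mrpl16 0.51, Mrpl58 0.49, Mrpl12 0.66, Mrps18a 0.64, Mrpl39 0.54, Mrpl37 0.89, Mrpl40 0.87, Mrpl42 0.82 and Mrps9 0.999. For the other genes named they were Chchd1 0.43, Malsu1 0.0175, Mrm3 0.0775, Mt-nd6 0.31, Psma2 0.25, Rars2 0.24, Rps27l 0.47, Slirp 0.19, Tfb2m 0.27, Tsfm 0.32 and Twnk 0.10. The span correction turned 3 of 71 members, Mrps27 to -0.21, Mrps6 to -0.21 and Mrps26 to 0.0289. Leaving out S1 and S2 turned 8, Mrpl37 to 0.0618, Mrpl40 to 0.12, Mrps9 to 0.22, Mrpl19 to 0.0259, Mrpl23 to 0.15, Mrps15 to 0.13, Mrps26 to 0.24 and Mrps5 to 0.12. Leaving out 1 library gave ranges that cross 0 for 5, Mrpl40 (-0.33 to 0.0218), Mrpl42 (-0.31 to 0.16), Mrps9 (-0.16 to 0.18), Mrpl23 (-0.37 to 0.0032) and Mrps26 (-0.43 to 0.0864). The other settings that refit the data turned 0 members. No paired analysis was possible because, although the design text gives each knockdown its own control, neither labels nor count columns carry a rat or replicate number shared by the groups.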
